A study of Mus musculus with 2 samples.

Results

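Slco4a1 and 4 other organic anion transporter genes, Slco2a1, Slco2b1, Slco3a1 and Slco4c1, were examined in tumour-infiltrating M-MDSCs of mice on a normal-salt diet (NSD) or a high-salt diet (HSD). The genes were chosen by name after the large signal difference of Slco4a1 between the diets had been seen, so the values of Slco4a1 are a description. All 7 probes that carry a RefSeq transcript of these 5 genes were taken, among 20653 genes and 39413 probes with a value on both arrays. Slco4a1, Slco2a1 and Slco4c1 had 1 probe each, and Slco2b1 and Slco3a1 had 2 probes each, every probe being printed in 1 spot per array.

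Female mice of the strain labelled BABL/c, 6 to 8 weeks old by the study's methods, were fasted for a day and received 1000000 4T1 mammary carcinoma cells under the skin of the left armpit. The NSD group then received chow with 0.4% NaCl and tap water, and the HSD group chow with 4% NaCl and water with 1% NaCl, for 16 days. M-MDSCs, immature monocytic cells that hold back T cells, were enriched from the tumours on magnetic beads, and the study's legends give 5 NSD and 6 HSD mice. Equal numbers of cells were mixed within a diet, giving 1 pooled array per diet, so the data hold no spread between mice and allow no test of the diet. By the methods the purity of the cells was typically over 90%. On the arrays, which shared 1 slide, 71.9% (NSD) and 72.4% (HSD) of probes were well above background, and none was saturated.

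SLCO genes encode organic anion transporting polypeptides, carriers of the plasma membrane that move large amphipathic anions into cells, among them bile salts, steroid sulfates, thyroid hormones, prostaglandins and many drugs. Slco4a1 encodes a widely expressed carrier of thyroid hormones, oestrogen sulfates and prostaglandins. Slco2a1 encodes the prostaglandin transporter, which clears extracellular prostaglandin E2 before its breakdown in the cytosol. Slco3a1 encodes a broadly expressed carrier of prostaglandins and thyroxine, Slco2b1 a carrier of steroid sulfates found in liver, gut and tissue macrophages, and Slco4c1 a carrier of digoxin and thyroid hormones known from the kidney.

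The Slco4a1 probe (A_55_P1989653, transcript NM_148933) had a processed signal of 253 ± 25.4 intensity units under NSD and 6911 ± 691 under HSD. Here and below, ± gives the error that the extraction software assigned to the signal of the spot, which leaves out the variation between mice. After each array was scaled on its 75th percentile, the HSD signal was 29.5-fold that of the NSD group, a log2 fold change (HSD minus NSD) of 4.88 ± 0.20. In RNA of mixed cells, more cells that express the gene and more RNA per cell cannot be told apart. Among the 15209 genes well above background on both arrays, Slco4a1 ranked 1 from the highest log2 fold change. The nearest values to it were those of Zfp607b, a zinc finger gene, at 4.52, Col16a1, a collagen gene, at 4.36, and Slc6a12, the betaine transporter gene, at 4.12, a likeness over only 2 arrays. These 3 values depended on the processing. With normexp background correction they were 1.33 for Zfp607b, 1.87 for Col16a1 and 2.9997 for Slc6a12, and the probes of Col16a1 disagreed, with a median over probes of 0.84.

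**Figure D1:**
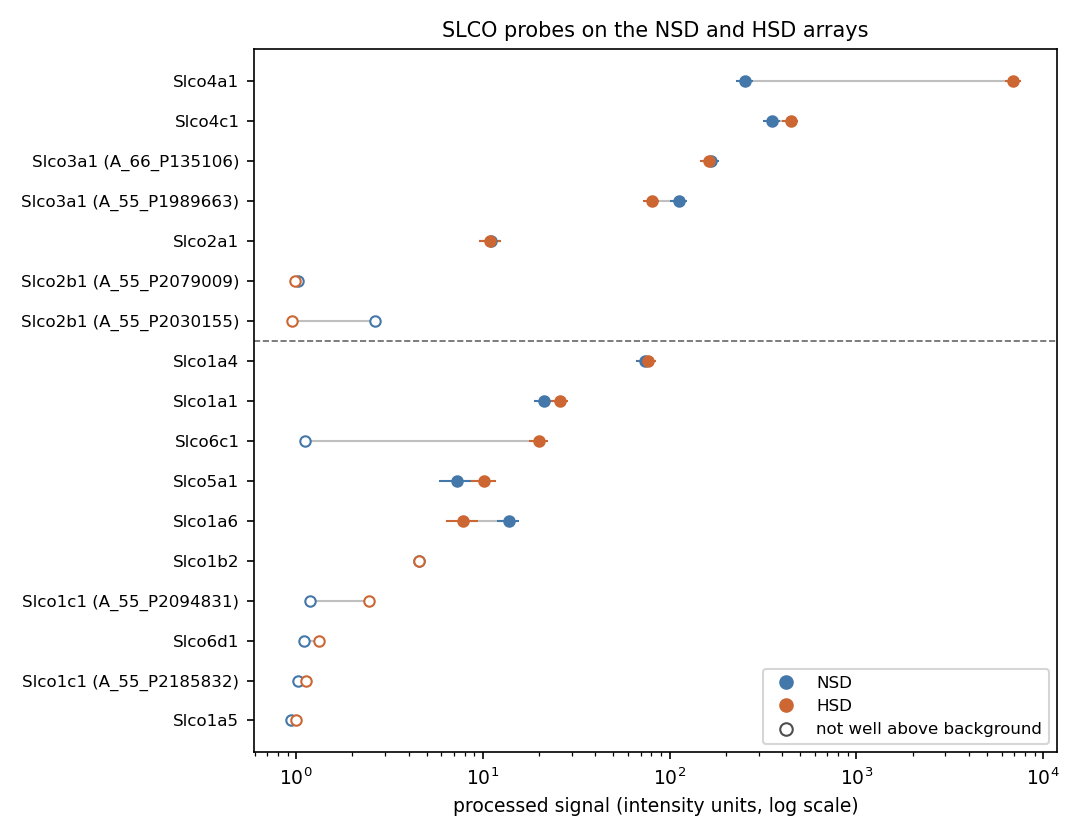
Processed signal of each SLCO probe on the NSD and HSD arrays (intensity units, log scale), with the genes described here above the dashed line and the rest of the family below it. Points are single spots, bars are the software's error where the spot was well above background, and open points were not well above background. Slco4a1 went from 253 to 6911 units, whereas the points of Slco4c1, Slco3a1 and Slco2a1 lie close together.

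The size of the Slco4a1 signal was also visible in the raw brightness of the spot. The median brightness of its pixels was 198 units over a local background of 18 on the NSD array and 4374 over a background of 17 on the HSD array. The net values of 180 and 4357 gave a ratio of 24.2 before any scaling. The spot lay in column 84 of the 85 columns of the array, near its edge, and the software's corrections raised the net value 1.41-fold on the NSD array and 1.59-fold on the HSD array. Without detrending, and with the same scaling, the log2 fold change was 4.73. The 15 spots within 3 rows and 3 columns of it that were well above background on both arrays had a median log2 fold change of 0.26, with a range from −4.14 to 0.60. The software flagged the spot on neither array. No second probe on the array carried a RefSeq transcript of the gene.

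Of the 5 genes, Slco4a1 alone lay past 1.5-fold, with the higher signal under HSD. Over all 16312 usable genes, which were well above background on both arrays or gave a bound from 1, 9.86% lay past 1.5-fold upwards with HSD and 10.3% past it downwards, 20.2% in all, and 19.2% of usable probes were past 1.5-fold either way. The count of 1 followed from the choice of Slco4a1 by its difference, and nothing is read from it.

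**Figure D2:**
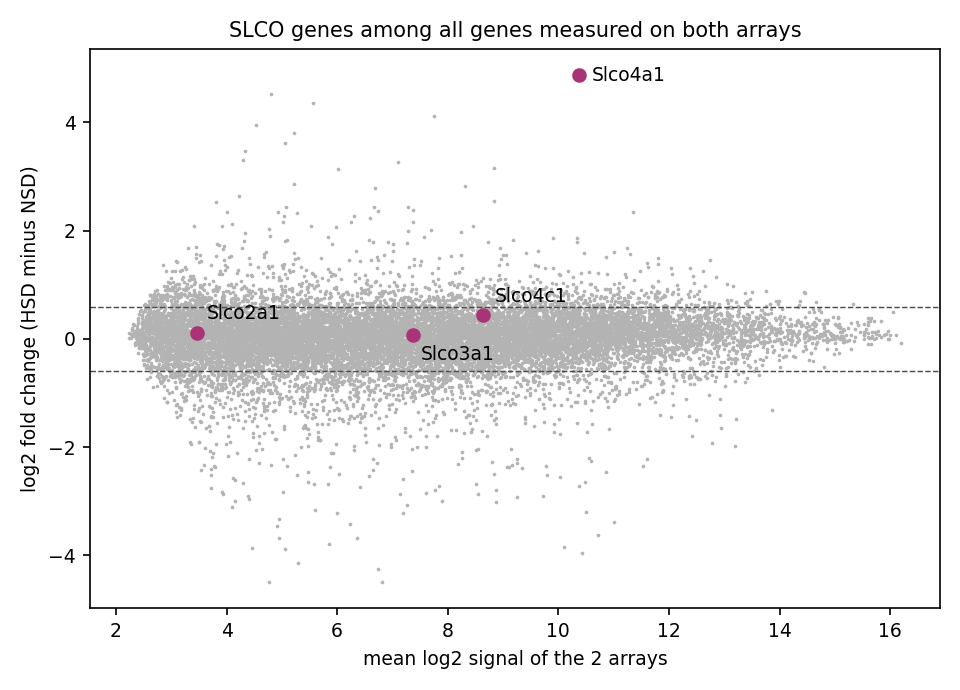
Log2 fold change (HSD minus NSD) against the mean log2 signal of the arrays, for the 15209 genes well above background on both (grey points). The dashed lines mark 1.5-fold, and the named SLCO genes are in purple. Slco4a1 lies at 4.88 at the top of the plot, and Slco2a1, Slco3a1 and Slco4c1 lie between the lines.

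Slco4c1, of the same subfamily as Slco4a1, gave a signal of 354 ± 35.4 under NSD and 445 ± 44.5 under HSD. Its log2 fold change was 0.44 ± 0.20, a 1.36-fold higher value that exceeded the error of the spots and stayed below 1.5-fold. Of the genes well above background on both arrays, 85.2% had a lower log2 fold change than Slco4c1.

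Slco3a1 was measured by probes for 2 transcripts, and they did not move together. The probe for NM_001038643 had a signal of 167 ± 16.8 under NSD and 162 ± 16.2 under HSD, a log2 fold change of 0.07 ± 0.20. The probe for NM_023908 had 112 ± 11.3 under NSD and 80.1 ± 8.09 under HSD, a log2 fold change of −0.37 ± 0.21. The first difference was within the error of the spots and the second was larger than it, although below 1.5-fold. The median over both probes was −0.15.

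Slco2a1, the prostaglandin transporter gene, had low and nearly equal signals of 11.04 ± 1.45 under NSD and 10.98 ± 1.48 under HSD. The log2 fold change of 0.11 ± 0.27 was within its error, and it was −0.070 without spatial detrending. Both signals were well above background.

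Slco2b1 was dim, that is, not well above background, on both arrays with either of its probes, so no fold change was given. One probe had 2.63 ± 1.00 units under NSD and 0.946 ± 0.944 under HSD, and the other had 1.03 ± 1.02 and 0.988 ± 0.985. The lowest signals called well above background on the arrays were 4.61 and 4.39 units, so a difference of Slco2b1 was not detectable here. Of 9 macrophage markers 8 had a probe, and Cd163 was dim on both arrays. With HSD 5 of them lay past 1.5-fold downwards and none upwards, beside 10.3% and 9.86% of all genes. A link of these markers to Slco2b1, which is known from tissue macrophages, was not tested. The summed scaled signal of the macrophage markers was 56.3 under NSD and 37.3 under HSD, in units of the 75th percentile of each array. Apoe alone made 28.2 of these units under NSD and 18.6 under HSD.

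The sequences before the annotated start sites of Slco4a1 and Slco4c1 are shown. These members of 1 subfamily, both well above background, had log2 fold changes of different size. A link of the sequences to the fold changes was not tested. The sequences hold the 250 bases before each start site in RefSeq annotation (GRCm38.p6), written 5′ to 3′ along the gene's strand. Capitals mark matches to any of 6 motifs, searched on both strands. These were the NFAT5 element known as TonE, the NFAT core GGAAA, which lies within TonE, the κB site of NF-κB, the AP-1 site TGANTCA, the hypoxia response core ACGTG and the GC box GGGCGG.
Slco4a1, first start site, chr2:180455995-180456244, plus strand: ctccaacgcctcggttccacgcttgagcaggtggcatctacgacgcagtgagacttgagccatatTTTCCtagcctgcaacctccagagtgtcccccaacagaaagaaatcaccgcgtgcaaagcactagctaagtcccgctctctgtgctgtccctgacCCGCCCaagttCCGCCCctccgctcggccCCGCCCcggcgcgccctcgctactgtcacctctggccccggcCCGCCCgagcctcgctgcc
Slco4a1, second start site, chr2:180460728-180460977, plus strand: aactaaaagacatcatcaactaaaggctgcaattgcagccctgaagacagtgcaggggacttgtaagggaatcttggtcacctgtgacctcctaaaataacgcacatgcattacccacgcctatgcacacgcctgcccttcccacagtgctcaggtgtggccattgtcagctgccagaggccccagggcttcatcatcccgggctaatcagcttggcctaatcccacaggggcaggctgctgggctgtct
Slco4c1, chr1:96872172-96872421, minus strand: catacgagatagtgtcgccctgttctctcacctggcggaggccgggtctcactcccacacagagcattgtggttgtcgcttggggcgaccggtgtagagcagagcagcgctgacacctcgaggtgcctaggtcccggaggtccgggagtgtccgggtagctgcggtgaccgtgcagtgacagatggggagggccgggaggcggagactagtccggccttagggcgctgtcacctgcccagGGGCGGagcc

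The first Slco4a1 window had 64.8% G and C and 21 CpG dinucleotides, against medians of 52.4% and 6 over 32851 windows of this length. It held 4 GC boxes, which begin 90, 79, 61 and 19 bases before the start site, all on the opposite strand. At least 1 GC box was found in 32.7% of all windows and at least 4 in 4.09%. An NFAT core began 185 bases before the start, a motif found in 55.6% of all windows. Neither Slco4a1 window held a match to TonE, κB, AP-1 or the hypoxia response core, which 4.31%, 7.25%, 6.75% and 16.6% of windows hold, and the second window held none of the 6 motifs. The Slco4c1 window, with 66.4% G and C and 19 CpG dinucleotides, held a single GC box beginning 10 bases before the start. Matching letters do not show that a factor binds, and the arrays do not say which start site was used.

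Genes beside Slco4a1 on the chromosome differed in both directions. That their values lay below that of Slco4a1 followed from its choice by its difference, and nothing is read from it. Of the 4 protein-coding genes on each side in the RefSeq order, 7 had a usable probe, 1 past 1.5-fold upwards and 3 downwards with HSD, beside 9.86% and 10.3% of all genes. Gata5, a transcription factor gene and the next gene on one side, had 170 ± 17.1 units under NSD and 78.6 ± 7.92 under HSD, a log2 fold change of −1.003 ± 0.20. Ntsr1, a neurotensin receptor gene and the next on the other side, had 5.68 ± 1.199 units under NSD and was dim under HSD, at 3.75 ± 1.11. Cables2, the one higher neighbour, had a log2 fold change of 0.89 ± 0.20. Rps21, a ribosomal protein gene, and Ogfr, an opioid growth factor receptor gene, had log2 fold changes of −0.75 ± 0.20 and −0.62 ± 0.20. The value of Ogfr was below 1.5-fold with normexp (−0.55), without spatial detrending (−0.53) and with the median over its probes (−0.55).

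**Figure D3:**
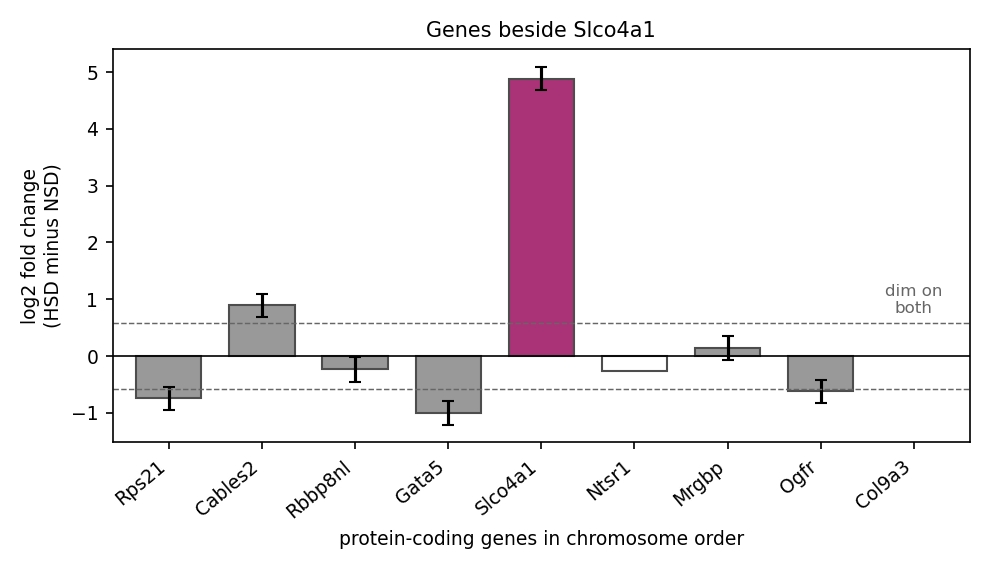
Log2 fold change (HSD minus NSD) of Slco4a1 and the 4 protein-coding genes on each side of it, in chromosome order. Error bars give the software's error, the open bar is a bound because Ntsr1 was dim under HSD, Col9a3 was dim on both arrays, and dashed lines mark 1.5-fold. The other measured genes lie between −1.003 and 0.89.

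Most of the rest of the SLCO family was dim or below 1.5-fold. RefSeq lists 15 SLCO genes, of which 14 had a probe, 8 were well above background on both arrays, 1 on the HSD array alone and 5 on neither. Of the 10 SLCO genes outside the 5, 9 had a probe and 5 a usable one. Of these 5, 2 lay past 1.5-fold upwards and 1 downwards, beside 9.86% and 10.3% of all genes, too few genes to read a difference from. Slco6c1, a testis gene that is the next protein-coding gene beside Slco4c1, was dim under NSD, with 1.12 ± 1.12 units, against 20.0 ± 2.35 under HSD, at least 4.68-fold higher (log2 bound 2.23, 2.03 with the deposited values and 0.36 with normexp). Slco5a1 had 7.24 ± 1.40 units under NSD and 10.2 ± 1.54 under HSD, 1.52-fold higher with a log2 error of 0.35. That value was below 1.5-fold under quantile normalisation, scaling on detected probes, cyclic loess, normexp and in the deposited values, and changed sign without spatial detrending. Slco1a6 had 13.8 ± 1.85 and 7.86 ± 1.53 units, a log2 fold change of −0.70 ± 0.34. Slco1a1, at 21.2 ± 2.38 and 25.8 ± 2.78 units, and Slco1a4, at 73.9 ± 7.47 and 76.4 ± 7.71 units, genes for hepatic and blood-brain barrier carriers, had log2 fold changes of 0.40 ± 0.22 and 0.16 ± 0.21. Slco1a5, Slco1b2, Slco1c1 and Slco6d1 were dim on both arrays, and no probe was matched to Slco6b1. With normexp background correction none of the 5 usable genes was past 1.5-fold.

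Genes that work on the same substrates were counted next, each list beside the share over all genes, 9.86% higher and 10.3% lower with a median log2 fold change of 0.045. Of 10 efflux transporter genes of organic anions, 7 had a usable probe, 2 lay past 1.5-fold upwards and 3 downwards, and the median was 0.34. Abcc1, which exports leukotriene C4 and glutathione conjugates, had 336 ± 33.6 units under NSD and 621 ± 62.1 under HSD, a log2 fold change of 1.00 ± 0.20. Abcc6, dim under NSD, had a measured signal 3.57-fold higher (log2 1.84). This was 1.66 on the log2 scale with the deposited values and 0.28, below 1.5-fold, with normexp. The lower genes were Abcc10, at −0.92 ± 0.20, Abcg2, the breast cancer resistance protein gene, at −0.68 ± 0.21 but −0.37 with normexp, and Abcc3, at −0.61 ± 0.20. Abcc4, which exports prostaglandins, had a log2 fold change of 0.34 ± 0.20.

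Of 22 prostaglandin genes, 18 had a usable probe, 2 lay past 1.5-fold upwards and 2 downwards, with a median log2 value of 0.11. Ptgs2, the inducible cyclooxygenase gene, had a log2 fold change of 0.95 ± 0.21, and Ptges2, a prostaglandin E synthase gene, one of 0.78 ± 0.20. Tbxas1, the thromboxane synthase gene, was lower, at 703 ± 70.3 units under NSD and 281 ± 28.1 under HSD (log2 fold change −1.21 ± 0.20). Hpgds, the haematopoietic prostaglandin D synthase gene, had a log2 fold change of −1.12 ± 0.21. Hpgd, whose enzyme breaks down the prostaglandins that Slco2a1 brings into the cell, was dim on both arrays. With normexp Ptgs2, at 0.44, and Hpgds, at −0.57, were below 1.5-fold.

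The list for thyroid hormones had 12 usable genes of 14, 1 past 1.5-fold upwards and 3 downwards, with a median log2 value of −0.16. Slc16a10, a carrier of aromatic amino acids and thyroid hormones, had 928 ± 92.8 units under NSD and 1993 ± 199 under HSD, a log2 fold change of 1.22 ± 0.20. Slc7a8, another amino acid carrier that takes up thyroid hormones, had 379 ± 37.9 and 101.5 ± 10.2 units over up to 10 spots per array, a log2 fold change of −1.79 ± 0.20. Dio2, the deiodinase gene that activates thyroxine, was at −0.85 ± 0.21, and at −0.48 with normexp. The carriers of this list thus differed in both directions.

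Among 11 uptake genes for organic anions and bile acids of other families, 9 were usable, none past 1.5-fold upwards and 2 downwards, with a median log2 value of −0.31. Slc22a19 and Slc10a2, the ileal bile acid transporter gene, were at least 4.84-fold and 2.45-fold lower, both dim under HSD. Of 10 genes of sulfate conjugation, 8 had a probe and 7 were usable, 1 higher and 1 lower past 1.5-fold, with a median of −0.47. Sult1a1, a sulfotransferase gene, had a log2 fold change of 1.12 ± 0.38 at signals of 5.64 ± 1.24 and 11.4 ± 1.64 units. Sult1d1 had a measured signal 2.37-fold lower and was dim under HSD. With normexp all 4 of these genes were below 1.5-fold, at −0.43 for Slc22a19, −0.11 for Slc10a2, 0.15 for Sult1a1 and −0.11 for Sult1d1. Sult1a1 was also below it without spatial detrending (0.55) and with the median over its probes (0.51).

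**Figure D4:**
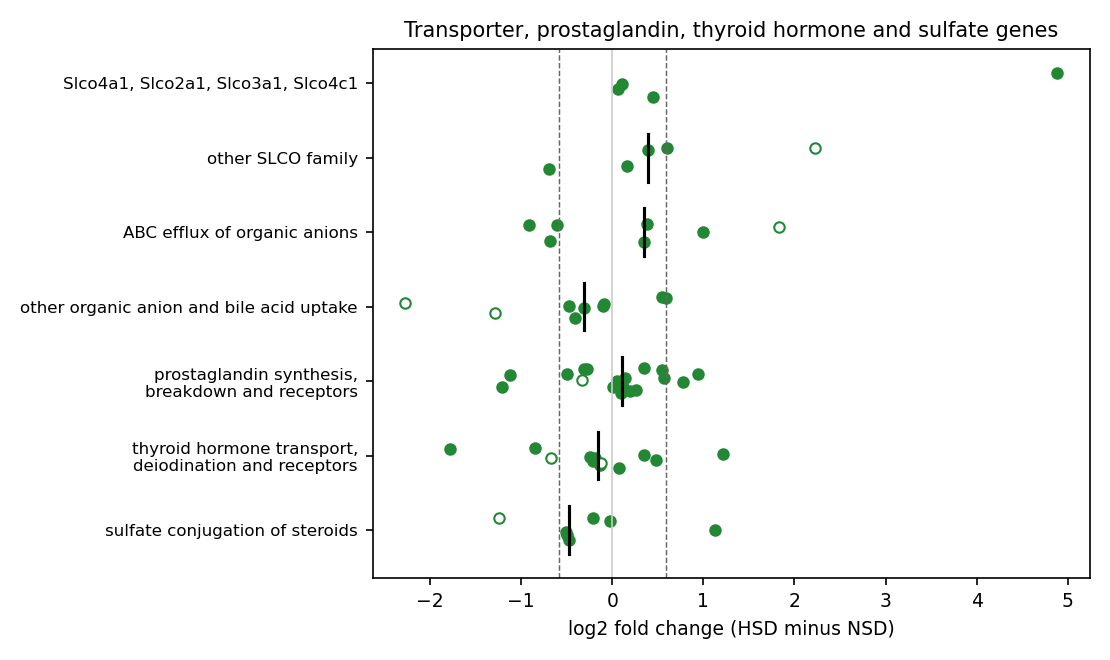
Log2 fold change (HSD minus NSD) of the SLCO genes described here and of the genes in 6 lists, 1 point per gene with a usable probe. Open points are genes well above background on 1 array only, given as bounds except for Abcc6 and Sult1d1, whose measured values are shown. Black bars are list medians and dashed lines mark 1.5-fold. Slco4a1 stands at 4.88, and the listed genes lie between −2.28 and 2.23.

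Marker genes were used to check which cells the pools held. Of 9 monocyte and M-MDSC markers, 8 had a probe and 7 were well above background on both arrays, while Arg1, the arginase gene, was so on neither, at 3.87 ± 1.00 units under NSD and 3.18 ± 0.957 under HSD. Both arrays showed all 7 neutrophil markers with a probe well above background, none of them past 1.5-fold. These markers were bright, such as Camp, at 61817 units under NSD and 59920 under HSD. Some lymphoid and erythroid markers also gave clear signals. Under NSD and HSD, Cd79b of B cells had 3519 and 4080 units, and Cd3d of T cells 1501 and 1871. Hba-a1 of erythroid cells had 10273 and 10843 units. Others of these lists were fainter, such as Cd79a, at 27.7 and 37.4 units. The shares of these cells were not tested. The summed scaled signal of the neutrophil markers was 1111 under NSD and 1158 under HSD. That of the monocyte and M-MDSC markers was 420 and 429, of which Ly6c1 alone made 205 and 208. Sums over different genes do not give the share of each cell type, and the share of neutrophils in the pools was not tested. Over all usable genes, 9.86% were at least 1.5-fold higher and 10.3% lower. Each marker list held few genes, and in some, such as platelets, the share past 1.5-fold was larger. Of 7 usable monocyte and M-MDSC markers, 1 was at least 1.5-fold higher and 1 lower. Of 5 usable dendritic cell markers these counts were 2 and 1, and of 5 fibroblast markers 1 and 2. Of 5 platelet markers 3 were lower, and of 6 usable T or NK cell markers 1, with none higher. No endothelial, B cell or erythroid marker was past 1.5-fold. Summed over each of the 11 marker lists, the scaled HSD signal lay between 0.216 times that of the NSD group, for platelets, and 1.38 times, for dendritic cells. Both of these sums rested mostly on 1 bright gene and do not measure cell numbers. Pf4 made 5.28 of the 5.62 platelet units under NSD, and Itgax 1.14 of the 1.52 dendritic cell units under HSD. The carcinoma sum was 1.02 times that of the NSD group. Of its 7 epithelial genes, Epcam, Krt18 and Krt8 were at least 1.5-fold higher, at signals of 12.2 to 25.0 units in the HSD group. Krt5 and Cdh1 were lower, at log2 fold changes of −0.54 ± 0.21 and −0.43 ± 0.21. Krt14 and Cldn7 were at 0.07 ± 0.22 and 0.18 ± 0.22. Single markers differed more, the largest among the macrophage genes being Mrc1, at a log2 fold change of −4.50 ± 0.32, and C1qc, at −3.11 ± 0.33. Of the 7 usable macrophage markers, 6 were lower and 1 higher. The higher one was C1qb, at 0.33 ± 0.21, and Adgre1 was at −0.55 ± 0.20. The part of the cell mix in the values of the SLCO genes was not tested.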

How the data were processed

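Total RNA of M-MDSCs was labelled with Cy3 and hybridised to Agilent Mouse GE v2 arrays, with 1 array per diet. The authors deposited the intensities extracted by Feature Extraction 11.0.1.1, in which the processed signal was corrected for background and spatial trends but not normalised between arrays. They also deposited normalised log2 values from GeneSpring, whose method is not given in the sources used here. Both columns had a median of 4.61 and an upper quartile of 7.89.

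Control spots and outlier spots were removed, log2 processed signals were averaged per probe, and each array was scaled by subtracting its own 75th percentile. RefSeq transcripts (GRCm38.p6) named 27223 of 39413 probes. The brightest probe represented a gene. Probes not well above background on 1 array gave a bound, and those dim on both gave no fold. The bound took the lowest signal called well above background in place of a lower dim signal. Where the dim signal lay above that level, the bound was the measured fold and is no minimum. The ± values come from the error model of the extraction software and cover the spot alone. Differences of at least 1.5-fold were counted, and no test was possible.

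The SLCO genes, 6 gene lists, 11 marker lists and 6 promoter motifs were chosen with earlier results of these data known. The genes named were the SLCO genes, the genes of each list past 1.5-fold (up to 4 a direction) and the 3 genes with the log2 fold change nearest to that of Slco4a1. Other genes were named after their values were seen. One listed gene that the rule names is not reported here. Counting past the threshold was checked on simulated signals. Python 3.11.15, numpy 2.4.6, pandas 2.3.3, matplotlib 3.10.9, R 4.3.3 and limma 3.58.1 were used. Alternatives covered background correction, scaling, normalisation, flagged spots, the filter, the threshold and the choice of probe. An alternative without spatial detrending was added after the data had been seen.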

Additional observations from a re-analysis of the deposited data

How the results depend on the processing

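The log2 fold change of Slco4a1 was between 4.33 (normexp background correction) and 4.99 (deposited values) under 9 alternatives, and 4.73 without spatial detrending. Slco3a1 moved from 0.07 to −0.15 with the median over its probes. The count of the 5 genes past 1.5-fold was 2 with no filter on dim probes, which then counted Slco2b1. Slco5a1 reversed to −0.45 without detrending. With normexp the genes past 1.5-fold were 0 rather than 3 for the other SLCO genes, 3 rather than 5 for efflux, 0 rather than 2 for other uptake (6 without detrending), 2 rather than 4 for prostaglandins, 2 rather than 4 for thyroid hormones and 0 rather than 2 for sulfate conjugation, whose median moved from −0.47 to −0.082. Normexp adds an offset that shrinks folds of dim probes, and over all genes it left 619 higher and 655 lower against 1608 and 1682. Cyclic loess gave 1244 higher and 1991 lower, 38.5% of calls higher against 48.9%. No paired analysis was possible because each diet had 1 array. Slco2b1, dim on both arrays, gave no fold in any setting that kept the filter.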

Other observations

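Slc10a1, the bile acid uptake gene of hepatocytes, was measured by 2 probes of 1 transcript that gave very different signals. One read 55347 units under NSD against 48063 under HSD, which gave a log2 fold change of −0.089. The other read 3.12 and 2.95 units and was dim on both arrays, that is, not well above background. This gene was chosen after its values had been seen.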
